A study of Mus musculus with 12 samples.

Results

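The 7 genes described here encode surface proteins that have been used, through antibodies, to sort or enrich mouse spermatogonia: Itga6, Itgb1, Cdh1, Epcam, Thy1, Cd9 and Gpr125. They were taken by symbol, as 7 of the 22552 symbols in the germ cell files. The rule used no measured value, but the markers were chosen with earlier results of these data known. Their RNA was highest in primitive type A spermatogonia. Itga6, Cdh1, Cd9 and Gpr125 had already lost most of their level in preleptotene spermatocytes. Epcam kept 68.5% of its mean level there (53.1% and 83.9% in the single libraries), 26.0% in pachytene spermatocytes and 30.7% in round spermatids. RNA of Sertoli cells, somatic cells of the tubule, was also highest in the spermatogonial libraries, and its part in these falls was not tested. Thy1 stayed under 1 FPKM in every library.

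Total RNA was sequenced from testis cells of male mice, F1 animals of a cross of DBA/2 and C57BL6, with 2 libraries labelled as replicates in each group. The germ cell groups were priSG-A (primitive type A spermatogonia, 7 days postpartum), plpSC (preleptotene spermatocytes, the last cells before meiotic prophase, 17 days), pacSC (pachytene spermatocytes, in meiotic prophase with paired chromosomes, 17 days) and rST (round spermatids, haploid cells after meiosis, 60 days). They were freshly separated by STAPUT, sedimentation through a gradient by cell size, and the labels name no sort by antibody. Spermatogonial stem cells (SSCs, from animals of 5 days) had been cultured, and gave circular RNA lists for 2 libraries treated with RNase R and 2 untreated ones. The labels do not say whether replicates came from separate animals, so the p-values measure the spread between these libraries. Age differs with stage except between plpSC and pacSC, so stage and age cannot be told apart in the other comparisons.

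Spermatogonia sit on the basement membrane of the seminiferous tubule, and cells that enter meiosis move away from it, past the tight junctions between Sertoli cells, the somatic nurse cells of the tubule. Integrins are heterodimers of an alpha and a beta chain: Itga6 pairs with Itgb1 to form a receptor for laminin, a protein of the basement membrane. Cdh1 (E-cadherin) and Epcam hold cells to one another, Cd9 is a tetraspanin that gathers integrins and other membrane proteins, Gpr125 (also named Adgra3) is an adhesion G protein-coupled receptor, and Thy1 is a protein of the immunoglobulin superfamily held by a GPI anchor, best known from T cells. The measurements are of RNA, not of protein at the cell surface.

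The stretches upstream of the transcription start were read from RefSeq (GRCm38.p6) for the 4 genes that matched its promoter table, Gpr125 under its symbol Adgra3. All 4 were lower in pacSC than in priSG-A, as were Itga6 and Cdh1 and 50.2% of all tested genes. Itga6, Cdh1 and Thy1 had no entry. Each line gives the 250 bases before the start site, 5′ to 3′ in the direction of the gene, with every GC box (GGGCGG, or CCGCCC on the other strand) in capitals. The windows are chr8:128685404-128685653 (plus strand) for Itgb1, chr17:87635729-87635978 (plus) for Epcam, chr6:125494761-125495010 (minus) for Cd9 and chr5:50058997-50059246 (minus) for Gpr125.
Itgb1: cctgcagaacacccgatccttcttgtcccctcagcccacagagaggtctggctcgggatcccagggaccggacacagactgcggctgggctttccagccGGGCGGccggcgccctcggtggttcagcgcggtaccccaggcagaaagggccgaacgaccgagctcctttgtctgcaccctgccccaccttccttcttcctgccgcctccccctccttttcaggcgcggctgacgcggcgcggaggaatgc
Epcam: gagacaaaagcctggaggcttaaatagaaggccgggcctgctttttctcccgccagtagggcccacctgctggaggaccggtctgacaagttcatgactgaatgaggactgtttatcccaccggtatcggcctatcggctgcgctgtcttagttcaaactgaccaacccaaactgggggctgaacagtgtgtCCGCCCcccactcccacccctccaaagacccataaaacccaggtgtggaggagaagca
Cd9: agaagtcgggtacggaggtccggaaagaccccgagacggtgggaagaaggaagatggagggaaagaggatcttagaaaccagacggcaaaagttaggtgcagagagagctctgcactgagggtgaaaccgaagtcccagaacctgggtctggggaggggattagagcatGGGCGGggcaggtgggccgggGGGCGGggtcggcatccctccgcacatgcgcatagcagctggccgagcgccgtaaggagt
Gpr125: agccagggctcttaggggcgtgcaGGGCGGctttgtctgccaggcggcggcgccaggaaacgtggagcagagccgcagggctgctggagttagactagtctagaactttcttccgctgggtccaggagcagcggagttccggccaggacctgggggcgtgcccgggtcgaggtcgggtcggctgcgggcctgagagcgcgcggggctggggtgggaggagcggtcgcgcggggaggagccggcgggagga
Each of the 4 windows held a GC box, that of Cd9 at 2 places, and 32.7% of all 32851 promoter windows of the same length hold one. None held TATAAA (12.4% of all windows) or CCAAT (33.9%), searched on both strands. The E-box CANNTG, present in 66.2% of all windows, occurred in the window of Cd9 at 3 places and of Epcam at 2, and in neither of the others, and no match overlapped another. The windows differed in CpG dinucleotides. Gpr125 had 25 and Itgb1 21, more than 89.3% and 83.7% of all windows hold, Cd9 had 16 and Epcam 8, against a median of 6 over all windows. A match in these letters is a description and not a bound site.

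Expression was deposited as FPKM (fragments scaled to transcript length and library depth), which can be compared between genes because it is divided by length. Genes with at least 1 FPKM in at least 2 of the 8 libraries were tested, which left 14111 symbols and 6 of the 7 markers; Thy1 did not pass. Depth recovered from the deposited confidence bounds was lowest in rST replicate 2, at 23520448 fragments, and highest in plpSC replicate 1, at 34923958. The stage labels were set against defining markers. Zbtb16 was at 16.5 and 13.8 FPKM in priSG-A and at most 2.57 later, Spo11 was highest in pacSC (34.2 and 35.6), and Prm1 was at 16020 and 19270 in rST. Not every spermatocyte marker set pacSC apart. Sycp3 was at 315 and 174 FPKM in pacSC, against 176 and 238 in plpSC. Mael was at 1002 and 826 FPKM in pacSC, against 984 and 1034 in rST. No list was drawn up for plpSC, so its label was not checked by a marker of its own. Stra8, on the differentiating spermatogonia list, was lower in both plpSC libraries (43.9 and 100 FPKM) than in both of priSG-A (166 and 145), so it did not mark out plpSC. Kit, Ccnd2 and Dnmt3b of that list were also highest in priSG-A, while Dmrtb1 was lowest there (20.0 and 16.4 FPKM). Libraries also carried RNA of other cells or stages. The round spermatid list summed to 535 and 271 FPKM in plpSC, against 142 and 18.8 in priSG-A. The 16 Sertoli cell markers were all at or above 1 FPKM in both priSG-A libraries and summed to 2471 and 2527 FPKM there, and pacSC replicate 2 had 2340 FPKM of Prm1, against 66.1 in pacSC replicate 1.

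The markers were compared by limma on log2(FPKM + 1), which understates changes of low genes, with 4 stage means and Benjamini-Hochberg adjustment over all 14111 symbols. In the test for any difference between the stages all 6 tested markers passed an adjusted p of 0.05, as did 88.5% of all tested genes. Each marker's change is therefore also set beside that of the median gene. The median change of all genes was -0.35 in plpSC, -0.60 in pacSC and -0.76 in rST relative to priSG-A. Against priSG-A, 5 of the 6 markers were lower in plpSC (41.3% of all genes were), 6 of 6 in pacSC (50.2% of all genes) and 6 of 6 in rST (53.6% of all genes). No marker was higher in plpSC or pacSC than in priSG-A, where 24.4% and 26.7% of all genes were. These 3 comparisons share the priSG-A libraries. The balance of calls over all genes depended on scaling: after each library was centred on its median, 50% of the genes called in pacSC against priSG-A were higher, against 34.7% without centring, and 48% against 35.5% in rST. Relative to the median gene, the markers changed in pacSC by -3.81 (Itga6), -3.02 (Gpr125), -2.96 (Cd9), -2.93 (Itgb1), -1.25 (Epcam) and -0.98 (Cdh1). The markers' calls in pacSC and rST held under every alternative that was run. In bulk RNA of this kind, fewer cells of a type and less RNA per cell cannot be told apart.

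**Figure D1:**
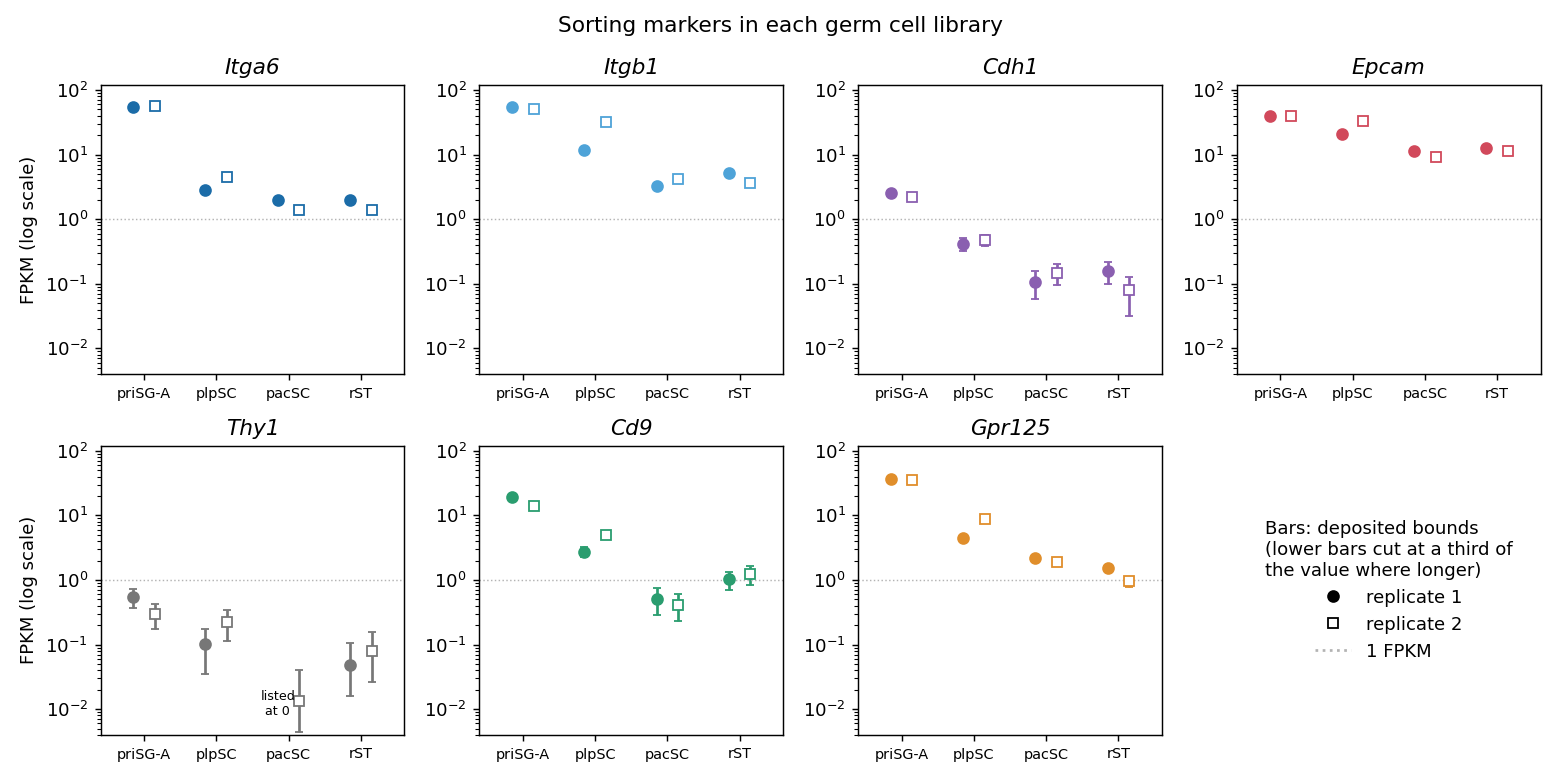
FPKM of each of the 7 markers (log axis) in both libraries of priSG-A, plpSC, pacSC and rST, with the deposited confidence bounds as bars and a dotted line at 1 FPKM. Itga6 drops at the first step to 2.80 and 4.45 FPKM in plpSC, Epcam stays at or above 9.07 FPKM throughout, and Thy1 never reaches 1 FPKM.

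Itga6, the laminin-binding alpha chain (mm9 chr2:71625140-71694815), had the steepest first step of the 6. It was at 54.6 and 56.2 FPKM in priSG-A, 2.80 and 4.45 in plpSC, then 1.96 and 1.38 in pacSC, and 2.02 and 1.40 in rST. Both priSG-A libraries stood far above the other 6, the plpSC libraries were the next highest, and those of pacSC and rST overlapped. Its mean in plpSC was 6.55% of that in priSG-A, a change of -3.63 (SE 0.25, limma adjusted p = 0.000153), or -3.28 relative to the median gene. In pacSC and rST the changes against priSG-A were -4.41 (adjusted p = 2.59e-05) and -4.39 (adjusted p = 2.80e-05), which left about 3% of the spermatogonial level. By stage mean it ranked above 56.8% of all symbols in pacSC, against 95.5% in priSG-A.

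Itgb1, the beta chain shared by many integrins (mm9 chr8:131209554-131257479), kept more of its priSG-A level in plpSC than Itga6 did, a difference not tested. Its values were 55.0 and 51.6 FPKM in priSG-A, 11.8 and 31.8 in plpSC, then 3.27 and 4.18 in pacSC, and 5.11 and 3.70 in rST. The 2 plpSC libraries differed more from each other than those of any other stage, yet both lay between priSG-A and the later stages. The plpSC mean was 40.9% of that in priSG-A (-1.40, SE 0.41, adjusted p = 0.0181). That call was lost without priSG-A replicate 1 (adjusted p = 0.0762) or priSG-A replicate 2 (adjusted p = 0.0619), within a range of 0.000488 to 0.0762 over all alternatives. In pacSC Itgb1 was at 6.99% and in rST at 8.27% of its priSG-A mean, changes of -3.53 and -3.34 with adjusted p of 0.000151 and 0.000148.

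The balance of the 2 chains differed with stage. The ratio of Itga6 to Itgb1 RNA was 0.992 and 1.09 in priSG-A, 0.237 and 0.140 in plpSC, then 0.600 and 0.329 in pacSC, and 0.395 and 0.379 in rST. The 2 chains were near equal in both priSG-A libraries, and Itgb1 was the more abundant chain in each of the 6 later libraries. This ratio was not tested.

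Cdh1, or E-cadherin (mm9 chr8:109127268-109194146), was the lowest of the tested markers. It was at 2.57 and 2.18 FPKM in priSG-A, 0.417 and 0.477 in plpSC, then 0.108 and 0.149 in pacSC, and 0.159 and 0.0793 in rST. The stages ran in that order without overlap except for pacSC and rST. The plpSC mean was 18.8% and the pacSC mean 5.41% of that in priSG-A; on the log2(FPKM + 1) scale, which compresses values this low, the changes were -1.22 (SE 0.13, adjusted p = 0.00025) and -1.58 (SE 0.13, adjusted p = 4.06e-05). The rST values rest on an estimated 27 and 11 fragments, against 478 and 463 in priSG-A.

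Epcam, the epithelial cell adhesion molecule (mm9 chr17:88035319-88050467), was the marker most kept. It was at 39.2 and 39.8 FPKM in priSG-A, 21.0 and 33.2 in plpSC, then 11.5 and 9.07 in pacSC, and 12.7 and 11.5 in rST. Both plpSC libraries lay below both priSG-A libraries, but the difference was not called (-0.56, SE 0.25, 95% interval -1.16 to 0.03, limma adjusted p = 0.0834) and was close to the median gene's -0.35. Without plpSC replicate 2 it was called (-0.88, adjusted p = 0.00589), and over all alternatives the adjusted p lay between 0.00589 and 0.277. In pacSC Epcam was at 26.0% of its priSG-A mean (-1.85, SE 0.25, adjusted p = 0.000353) and in rST at 30.7% (-1.63, adjusted p = 0.000511). From plpSC on it was the most abundant of the 7 RNAs in each library, with Itgb1 close behind in plpSC replicate 2.

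Cd9, the tetraspanin (mm9 chr6:125410284-125444773), was at 19.0 and 14.0 FPKM in priSG-A, 2.74 and 4.96 in plpSC, then 0.512 and 0.416 in pacSC, and 1.03 and 1.24 in rST. The lowest stage was pacSC, and no 2 stages overlapped. Against priSG-A the change was -1.87 in plpSC (SE 0.27, adjusted p = 0.000911), -3.56 in pacSC (adjusted p = 3.67e-05) and -3.02 in rST (adjusted p = 4.52e-05). The pacSC mean was 2.82% of that in priSG-A, the lowest remaining share of the 6 tested markers at any stage.

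Gpr125, the adhesion receptor (mm9 chr5:50351190-50450235), stood at 37.0 and 35.7 FPKM in priSG-A, 4.42 and 8.92 in plpSC, then 2.17 and 1.93 in pacSC, and 1.51 and 0.952 in rST. Each stage lay below the one before it without overlap. The plpSC mean was 18.3%, the pacSC mean 5.64% and the rST mean 3.38% of that in priSG-A. The matching changes were -2.35 (SE 0.31, adjusted p = 0.000588), -3.62 (adjusted p = 4.58e-05) and -4.08 (adjusted p = 3.42e-05).

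Thy1 (mm9 chr9:43851467-43856662), an antigen widely used to enrich stem spermatogonia from mouse pup testes, was at 0.546 and 0.296 FPKM in priSG-A, 0.104 and 0.225 in plpSC, then 0 and 0.0135 in pacSC, and 0.0485 and 0.0795 in rST. It was highest in both priSG-A libraries, listed at 0 in pacSC replicate 1, and rested on at most an estimated 37 fragments in any library. By stage mean it ranked above 39.4% of symbols in priSG-A, where Itga6, Itgb1, Epcam and Gpr125 each ranked above at least 92.0%. With no filter on low values (20579 symbols tested) its changes against priSG-A were -0.28 in plpSC (adjusted p = 0.0372), -0.49 in pacSC (adjusted p = 0.00331) and -0.41 in rST (adjusted p = 0.00574). T cells also carry Thy1. Of the 6 T cell markers, Cd3e and Cd3g, parts of the T cell receptor complex, were under 1 FPKM in every library, as was Ptprc, a gene of leukocytes in general. Cd2 was at 1.05 and 2.47 FPKM in rST, against 0.264 and 0.417 in priSG-A, and was called higher in rST (adjusted p = 0.00922). The 6 markers summed to between 1.27 and 4.99 FPKM per library, lowest in priSG-A and highest in rST, and their part in the Thy1 values was not tested.

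**Figure D2:**
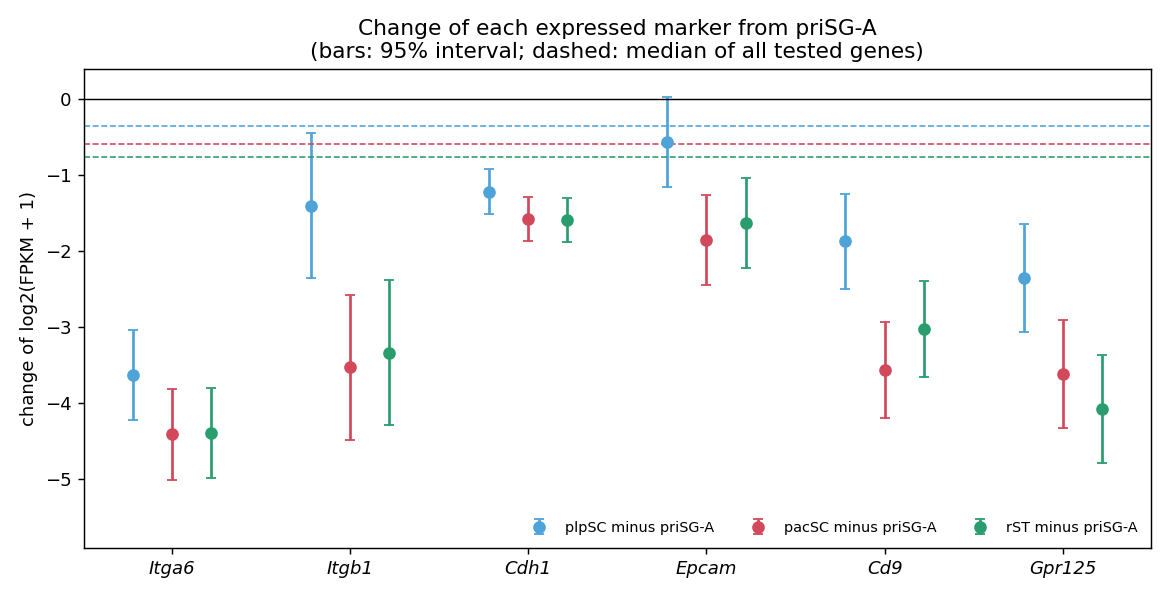
Change of log2(FPKM + 1) of the 6 tested markers from priSG-A in plpSC, pacSC and rST, with 95% intervals from limma; dashed lines mark the median change of all 14111 tested genes. Itga6 lies at -3.63 to -4.41 in all 3 stages, and the interval of Epcam in plpSC alone reaches above 0.

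Between plpSC and pacSC, the pair of stages taken at the same age, 4 of the 6 markers were lower in pacSC, where 21.6% of all tested genes were lower and the median gene changed by -0.25. Itgb1 was at 3.27 and 4.18 FPKM in pacSC, against 11.8 and 31.8 in plpSC, a change of -2.12 (SE 0.41, adjusted p = 0.0144). Cd9 changed by -1.69 (SE 0.27, adjusted p = 0.00966), Epcam by -1.29 (SE 0.25, adjusted p = 0.0153) and Gpr125 by -1.27 (SE 0.31, adjusted p = 0.0249). Itga6 (-0.78, adjusted p = 0.0589) and Cdh1 (-0.36, adjusted p = 0.0739) were lower in both pacSC libraries than in both plpSC libraries but did not pass. The 4 calls were not all firm. The count was 2 without pacSC replicate 1, 2 without pacSC replicate 2 and 6 without plpSC replicate 1. The calls over all genes were 1074 without pacSC replicate 1 and 1265 without pacSC replicate 2, against 3646 with all libraries. Itgb1 was lost in the first case (adjusted p = 0.0677, range over alternatives 0.00123 to 0.0754) and Epcam in the second (adjusted p = 0.0627, range 0.00186 to 0.0820). Gpr125 was lost without any 1 of the 6 libraries of priSG-A, pacSC and rST (adjusted p of 0.0512 to 0.0876, range 0.00191 to 0.129). After median centring 52.3% of the genes called between these stages were higher in pacSC, against 16.3% without it, and 2 markers were then called.

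In rST against plpSC all 6 tested markers were lower, as were 36.4% of all genes (median change -0.34). The largest changes were those of Itgb1 (-1.94, SE 0.41, adjusted p = 0.00997) and Gpr125 (-1.73, SE 0.31, adjusted p = 0.00725). Itga6 (adjusted p = 0.0422) and Cdh1 (adjusted p = 0.0437) were near the threshold. No marker passed without rST replicate 2, where 3 of all 14111 genes passed, and 2 passed without rST replicate 1, where 2873 genes did (6763 with all libraries). After median centring 58% of all called genes were higher in rST, against 24% without it, and 2 markers were called.

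Between pacSC and rST, 0 of the 6 markers passed the limma test at an adjusted p of 0.05 and 0 had an unadjusted p under 0.05, while 34.4% of all genes were called in either direction (17.7% higher and 16.7% lower). Cd9 came nearest, at 1.03 and 1.24 FPKM in rST, against 0.512 and 0.416 in pacSC, a change of 0.54 (95% interval -0.09 to 1.17, adjusted p = 0.167). It was called as higher without plpSC replicate 1 (adjusted p = 0.0426) or plpSC replicate 2 (adjusted p = 0.0418), and its adjusted p ranged from 0.0205 to 0.488 over the alternatives. Gpr125 changed by -0.46 (95% interval -1.18 to 0.25), and the intervals of Itga6 (-0.57 to 0.62), Itgb1 (-0.77 to 1.14), Cdh1 (-0.31 to 0.28) and Epcam (-0.37 to 0.82) all spanned 0. When the libraries were rescaled with the small RNAs Rpph1, Rmrp and Rprl3 left out, 31.5% of the genes called between these stages were higher in rST, against 51.4% as deposited.

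The markers' summed level and its make-up changed together. The 7 genes summed to 207.9 and 199.7 FPKM in priSG-A, 43.3 and 84.0 in plpSC, then 19.5 and 17.1 in pacSC, and 22.6 and 19.0 in rST. All 7 were higher in plpSC replicate 2 than in plpSC replicate 1. In priSG-A the RNA was spread over Itga6 (26.2% and 28.1%), Itgb1 (26.4% and 25.8%), Epcam (18.9% and 19.9%) and Gpr125 (17.8% and 17.9%). Epcam then made up 48.5% and 39.5% in plpSC, then 59.0% and 52.9% in pacSC, and 56.2% and 60.8% in rST, while Itga6 made up 6.47% and 5.30% in plpSC.

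**Figure D3:**
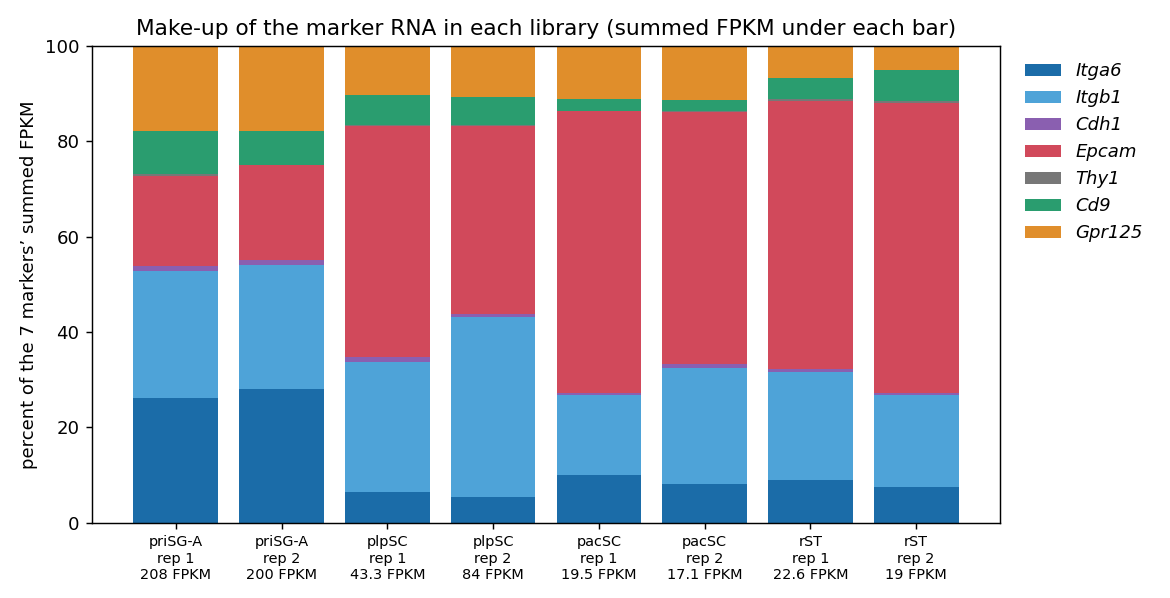
Share of each marker in the summed FPKM of the 7 markers (percent, stacked bars from 0 to 100) in each of the 8 libraries, with the sum under each bar. Epcam takes 18.9% and 19.9% in priSG-A and 52.9% to 60.8% in pacSC and rST.

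RNA of other cell types also differed between the libraries, and not always in the direction of the markers. The Sertoli cell list summed to 2471 and 2527 FPKM in priSG-A, 282 and 393 in plpSC, then 144 and 164 in pacSC, and 59.8 and 48.8 in rST, a course in the same direction as that of the markers. Amh, a hormone of immature Sertoli cells, was at 81.7 and 61.1 FPKM in priSG-A and at most 2.11 later. All 16 markers were lower than in priSG-A in pacSC (50.2% of all tested genes were) and in rST (53.6% were). The undifferentiated spermatogonia list, which holds Zbtb16, Sall4 and Gfra1, summed to 123 and 113 FPKM in priSG-A, 28.1 and 42.6 in plpSC, then 37.9 and 35.6 in pacSC, and 14.4 and 11.2 in rST. In pacSC against priSG-A 10 of its 11 tested members were lower and 1 was higher, where 50.2% and 26.7% of all tested genes were. Only 2 of its 15 genes reached 1 FPKM in each pacSC library, so the pacSC sums rest on few genes. The part of Sertoli cell RNA in the markers' fall was not tested.

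The plpSC libraries also differed in RNA of other cell types, in both directions. Higher in replicate 1 were the lists of round spermatids (535 FPKM, against 271 in replicate 2) and spermatocytes (1432, against 1020). The spermatocyte sum followed Mael (998 FPKM in replicate 1, against 458). On the same list Sycp3 was higher in replicate 2 (238, against 176) and Hist1h1t was level (144, against 145). Spo11 and Piwil1 were a little higher in replicate 1. The lists of differentiating spermatogonia (243, against 212), Leydig cells (107, against 99.3) and T cells (2.34, against 2.11) were higher in replicate 1 by less. The sum for differentiating spermatogonia followed Dmrtb1 (185 FPKM in replicate 1, against 84.2). On that list Stra8 (43.9, against 100), Kit, Ccnd2 and Dnmt3b were higher in replicate 2. The other lists were higher in replicate 2. Replicate 2, where all 7 markers were higher, had 610 FPKM of the peritubular myoid and stromal list (10 of 10 markers at or above 1 FPKM), against 187 in replicate 1, and 441 FPKM of the erythroid list, against 224. Against priSG-A, where the stromal list summed to 34.3 and 91.4 FPKM, 9 of its 10 genes were higher in plpSC (24.4% of all tested genes were). Dcn, for example, was at 44.1 and 98.8 FPKM in plpSC, against 4.78 and 10.2 in priSG-A. The stromal sums were 14.9 and 25.5 FPKM in pacSC and 121 and 79.0 in rST. Macrophage sums ran between 5.17 and 34.4 FPKM, and endothelial sums between 2.81 and 17.4. Leydig sums lay between 47.4 and 225 FPKM except for 863 in pacSC replicate 2. Their part in the marker values was not tested.

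**Figure D4:**
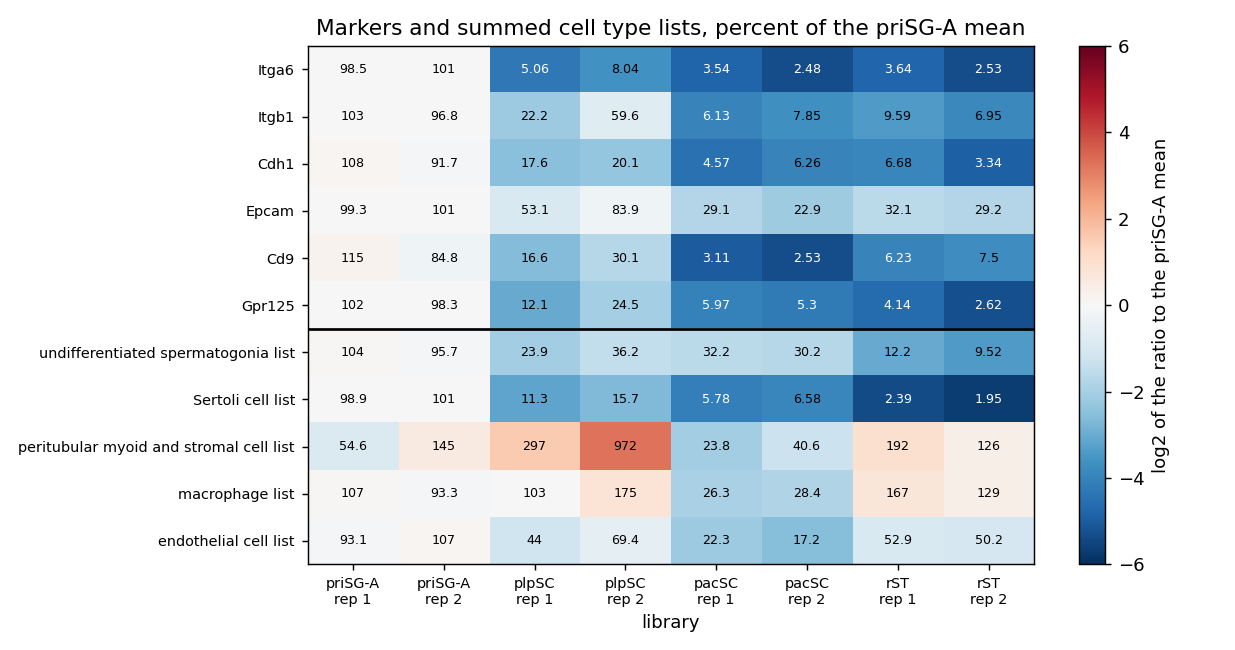
Level of the 6 tested markers (upper rows) and of 5 summed cell type lists (lower rows) in each library, as percent of the priSG-A mean; colour gives the log2 of that ratio. The Sertoli list falls to 11.3% and 15.7% in plpSC, and the stromal list stands at 297% and 972% there.

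Other genes of each marker's family were counted from lists drawn up with earlier results of these data known. Each count in pacSC against priSG-A is to be read against the 50.2% of all tested genes that were lower and the 26.7% that were higher. The counts of integrin subunits, cadherins and catenins, adhesion receptors and Ly6 and GPI-anchored proteins lay near those shares. Of 10 tested integrin subunits other than Itga6 and Itgb1, 6 were lower and 3 higher in pacSC than in priSG-A, with a median change of -1.44 against -0.60 over all genes. Itgav, a fibronectin and vitronectin receptor chain used to select against stem cells, was lower as well, at 0.459 and 0.622 FPKM in pacSC, against 9.77 and 9.18 in priSG-A (-2.77, adjusted p = 0.000181). Itgae, the alpha chain that binds E-cadherin, went the other way, at 10.6 and 8.84 FPKM in pacSC, against 0.650 and 0.573 in priSG-A (2.73, adjusted p = 0.000321). Itga3, another laminin-binding chain, was at 2.75 and 3.09 FPKM in priSG-A and under 0.4 in pacSC and rST. Itgb4, the second partner of Itga6, stayed under 1 FPKM throughout and was not tested.

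Among 13 tested adaptors that link integrins to actin, 10 were lower and 2 higher in pacSC than in priSG-A (median -1.54). The higher count was 1 when either priSG-A library or either pacSC library was left out. Vcl (vinculin) was at 3.19 and 3.65 FPKM in pacSC, against 45.5 and 44.2 in priSG-A (-3.38, adjusted p = 4.04e-05), while Lims2 was at 6.16 and 9.54 FPKM in pacSC, against 0.366 and 0.292 in priSG-A (2.71, adjusted p = 5.10e-05). Of 10 tested laminin chains, the ligands, 7 were lower and 0 higher in pacSC (median -2.34), and the higher count was 1 without plpSC replicate 1 or plpSC replicate 2. Lamb1 was at 1.08 and 1.94 FPKM in pacSC, against 34.9 and 35.6 in priSG-A (-3.87, adjusted p = 0.000179). Laminin chains summed to 47.2 FPKM in plpSC replicate 1 and 136 in plpSC replicate 2.

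Of 14 tested cadherins and catenins beside Cdh1, 9 were lower and 2 higher in pacSC than in priSG-A (median -1.12). After median centring 7 were lower and 4 higher, with a median of -0.54. Ctnnb1, the beta-catenin bound by cadherin tails, was at 37.4 and 29.6 FPKM in pacSC, against 201 and 203 in priSG-A (-2.57, adjusted p = 0.000167). Cdh2 (N-cadherin) differed from Cdh1: it was at 16.1 and 15.3 FPKM in priSG-A, 16.6 and 13.2 in plpSC, then 24.0 and 20.8 in pacSC, and 14.7 and 10.8 in rST. Its change in pacSC against priSG-A was 0.48 (SE 0.23, adjusted p = 0.0823). The difference between the 2 cadherins was not tested.

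Among 12 tested claudin and tight junction genes, 10 were lower and 0 higher in pacSC than in priSG-A (median -1.92). The higher count was 1 without pacSC replicate 1. F11r (JAM-A) was at 2.13 and 2.43 FPKM in pacSC, against 52.6 and 51.9 in priSG-A (-4.02, adjusted p = 2.60e-05). Cldn11, the claudin of Sertoli cell junctions and itself on the Sertoli list, was at 10.4 and 5.10 FPKM in pacSC, against 128 and 135 in priSG-A (-3.99, adjusted p = 4.86e-05).

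Of 23 tested tetraspanins and Cd9 partners, 18 were lower and 2 higher in pacSC than in priSG-A (median -1.46). The higher count was 0 without priSG-A replicate 1 or priSG-A replicate 2, and 1 without pacSC replicate 2, rST replicate 1 or rST replicate 2. Cd81, the closest relative of Cd9, was at 9.17 and 40.0 FPKM in pacSC, against 127 and 132 in priSG-A (-2.68, SE 0.63, adjusted p = 0.00554), with its pacSC libraries wide apart. Igsf8, an immunoglobulin protein that binds Cd9 and Cd81, was at 1.52 and 1.46 FPKM in pacSC, against 19.1 and 18.6 in priSG-A (-2.99, adjusted p = 3.38e-05).

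Of 12 tested adhesion receptors of the family of Gpr125, 7 were lower and 2 higher in pacSC than in priSG-A (median -0.81). The lower count was 4 after quantile normalization (median -0.31) and 5 after median centring (median -0.23). The higher count was 0 without priSG-A replicate 1, priSG-A replicate 2, pacSC replicate 2, rST replicate 1 or rST replicate 2, and 5 after median centring. Gpr56 was at 0.628 and 0.814 FPKM in pacSC, against 22.1 and 17.8 in priSG-A (-3.60, adjusted p = 3.16e-05). Of 25 tested Ly6 and GPI-anchored proteins, the class of Thy1, 13 were lower and 6 higher (median -0.52). Their median turned sign with scaling, to 0.06 after median centring (11 lower and 10 higher) and 0.12 after quantile normalization (11 lower and 8 higher). Nt5e was at 1.61 and 1.85 FPKM in pacSC, against 35.7 and 41.8 in priSG-A (-3.86, adjusted p = 2.79e-05). Ly6k, a germ cell protein, was at 139 and 110 FPKM in pacSC, against 5.17 and 8.18 in priSG-A (4.05, adjusted p = 2.81e-05).

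Among 16 other surface markers of spermatogonia, 14 were lower and 1 higher in pacSC than in priSG-A (median -1.74), and the higher count was 0 without priSG-A replicate 1, priSG-A replicate 2 or pacSC replicate 2. Gfra1, the receptor for the stem cell factor GDNF, was at 0.411 and 0.476 FPKM in pacSC, against 6.64 and 6.29 in priSG-A (-2.37, adjusted p = 3.02e-05). Kit, the receptor of differentiating spermatogonia, was at 0.710 and 2.86 FPKM in pacSC, against 14.5 and 13.5 in priSG-A (-2.55, adjusted p = 0.00137). Mcam was at 1.99 and 2.14 FPKM in pacSC, against 62.3 and 59.9 in priSG-A (-4.34, adjusted p = 3.92e-05). Of 9 tested markers used for negative selection, which share Itgav and Kit with the other lists, 5 were lower and 0 higher (median -1.64, 1 higher after median centring). Cd34 was at 1.61 and 1.00 FPKM in pacSC, against 5.38 and 7.78 in priSG-A (-1.71, adjusted p = 0.00335).

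The same lists were counted in plpSC, where 41.3% of all tested genes were lower and 24.4% higher than in priSG-A. Against priSG-A, 10 of 12 tight junction genes, 14 of 23 tetraspanins, 9 of 16 other spermatogonial surface markers and 8 of 14 cadherins and catenins were lower in plpSC. Lower counts near the share of all genes were those of adhesion receptors (5 of 12, with 2 higher) and negative selection markers (4 of 9, with 3 higher). Ly6 and GPI-anchored proteins were near it too (11 of 25, with 9 higher and a median change of 0.075). Higher in plpSC were also 3 of 10 integrins and 2 of 13 of their adaptors. For the integrins 6 of 10 were lower (3 without priSG-A replicate 1), and for their adaptors 7 of 13 (4 without priSG-A replicate 1 or priSG-A replicate 2). Laminins had 5 of 10 lower and 3 higher (1 higher without priSG-A replicate 1 or plpSC replicate 2), among them Lamc3, at 8.31 and 35.2 FPKM in plpSC, against 0.902 and 4.14 in priSG-A (2.55, adjusted p = 0.0188). The stromal list was higher in the same plpSC libraries, and its part in the laminin values was not tested.

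The 3 genes most like each marker were found by Pearson r of log2(FPKM + 1) over the 8 libraries, among 8468 expressed symbols reaching 10 FPKM in a stage mean (8469 for Cdh1). These correlations describe the 8 libraries and carry no test, and many genes share the drop after priSG-A: 484 candidates had an r above 0.99 with Gpr125, but only 51 with Epcam. Closest to Itga6 were Fam19a5 (r = 0.999), Rragd and Cdr2l. Closest to Itgb1 were Fermt2 (r = 0.9996), Chsy1 and Arhgap12; Fermt2 was at 18.0 and 18.1 FPKM in priSG-A, 4.13 and 10.9 in plpSC, then 1.09 and 1.45 in pacSC, and 1.81 and 1.15 in rST, with its plpSC libraries apart in the same direction. Closest to Cdh1 were Sall4 (r = 0.999), Lin28a and Trim71. Epcam was nearest to Rap1a (r = 0.998), Pign and Hist1h2ao, Cd9 to Casc4 (r = 0.997), Cse1l and Ccnt1, and Gpr125 to Nfkbia (r = 0.9995), Slc22a17 and Cdc42bpb. Between the markers themselves r ran from 0.860 for Itga6 with Epcam to 0.993 for Itga6 with Cdh1.

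The cultured SSCs gave back-splice junction reads, which mark circular RNAs (circRNAs), and these lists hold no linear expression. RNase R digests linear RNA and so enriches circles. The lists totalled 263855 and 560991 junction reads after RNase R, against 21754 and 30400 untreated. Inside the 7 loci there were 19 distinct circRNAs, all typed as exonic, all in the RNase R lists and none in either untreated list, whose total was far smaller. Gpr125 held 13 of them, with 24 and 95 junction reads in the RNase R libraries. Epcam held 2 (14 and 32 reads), Itga6 3 (8 and 8 reads) and Itgb1 1 (0 and 4 reads), and Cdh1, Thy1 and Cd9 held none.

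Only 5 of these circRNAs were in both RNase R lists. Within Gpr125 they spanned mm9 chr5:50361929-50363314 (8 and 20 reads), chr5:50361929-50398201 (3 and 9 reads) and chr5:50397988-50417017 (13 and 6 reads). Within Epcam the shared circRNA spanned chr17:88042882-88045680 (14 and 22 reads), and within Itga6 it spanned chr2:71654687-71660626 (8 and 2 reads). With reads this few, a circRNA absent from a locus cannot be told apart from one not detected at this depth. No comparison between the treated and untreated libraries was tested.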

How the data were processed

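Per the file headers, the 8 germ cell files hold the FPKM of each gene as deposited, with its confidence bounds. The 4 SSC files list circRNAs with a deposited count of back-splice junction reads and a type. TopHat2 2.0.6, Cuffdiff, BWA and build mm9 appear in the submitters' processing notes without the step each served. Strand is not given in the sources used here, so antisense reads were not separable.

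Entries sharing a symbol (728) were summed, which left 22552 symbols. Fragments were estimated by taking the distance between the deposited FPKM and its bound as 2 counting SDs; 57.4% to 65.0% of these estimates lay within 0.05 of a whole number. Tests used limma 3.58.1 in R 4.3.3 (two-sided, eBayes with a trend) on log2(FPKM + 1). Symbols with at least 1 FPKM in at least 2 of 8 libraries entered a fit of 4 stage means to all 8 libraries, with 4 residual degrees of freedom. The threshold was 0.05 after Benjamini-Hochberg adjustment over all tested symbols. The limma script was first tested on simulated data. Marker loci are mm9, written 1-based, from the file for pacSC replicate 2, and a circRNA was assigned to a marker when it lay wholly inside its locus. Promoter windows are RefSeq sequence of GRCm38.p6, and no coordinates were converted between builds. Tables and figures were made in Python 3.11.15 (numpy 2.4.6, pandas 2.3.3, matplotlib 3.10.9).

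The genes named are the 7 markers, the 3 genes most like each, some of the up to 4 genes a list with the widest range of stage means among those passing the test over all stages, defining markers of the cell type lists, and fixed neighbours in role. The markers, lists and tests were chosen with earlier results of these data known. The alternatives were a pseudocount of 0.1, no filter, quantile normalization, median centring, rescaling with small RNAs left out, a fit on the compared stages alone, a weight per stage, a replicate block and leaving out each library. The list counts under left-out libraries and other scalings were added after seeing the data. No correction was made for RNA of other cell types.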

Additional observations from a re-analysis of the deposited data

How the results depend on the processing

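The number of markers called was 6 in the test over all stages and 6 in pacSC and in rST against priSG-A, under every alternative run except no filter, which let Thy1 in and gave 7 in each. In plpSC against priSG-A it was 5, with 6 under no filter and 4 to 6 with 1 library left out. In pacSC against plpSC it was 4, with 2 after median centring, 2 with the compared stages alone, 0 with a weight per stage (plpSC then had a weight of 0.19, and 1 of all 14111 genes was called) and 2 to 6 with 1 library left out. In rST against plpSC it was 6, with 3 after quantile normalization, 2 after median centring, 3 with a weight per stage and 0 to 6 with 1 library left out (3 of all genes were called without rST replicate 2). In rST against pacSC it was 0, with 1 at a pseudocount of 0.1, 1 with the compared stages alone (Cd9 in both) and 0 to 1 with 1 library left out. The cause of these shifts was not tested. Signs turned only for changes near 0. After median centring the change of Cdh1 was 0.043 in pacSC and 0.0908 in rST against plpSC and 0.0479 in rST against pacSC. In rST against pacSC, rescaling gave Itga6 -0.235, Itgb1 -0.153 and Epcam -0.169. With 1 library left out that comparison ran from -0.14 to 0.19 for Itga6, from -0.0001234 to 0.38 for Itgb1 and from -0.0641 to 0.0383 for Cdh1. The labels do not say that replicate numbers pair libraries. The correlation of same-numbered deviations between stages ran from -0.314 to 0.38, which cannot decide whether they do. With the replicate block the counts were 6 over all stages, 5, 6 and 6 in plpSC, pacSC and rST against priSG-A, 4 in pacSC against plpSC, 4 in rST against plpSC (Itga6 and Cdh1 were not called) and 0 in rST against pacSC. With 2 libraries a stage, small changes of low genes such as Cdh1 and Thy1 are limited by few fragments.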
